A study of Mus musculus with 12 samples.

Results

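The genotype by injury interaction asks, gene by gene, whether skin of Nf1-KO mice changed after injury by the same factor as skin of control mice. It was computed as the log2 injury response of Nf1-KO skin minus the log2 injury response of control skin. All 12 samples of the series entered it, so the members are 12 of 12 samples in a 2 by 2 design with 3 samples in each of 4 groups. A value above 0 means that the injured to uninjured ratio was larger in Nf1-KO skin, and a value below 0 that it was smaller. Such a value can come from the uninjured groups as much as from the injured ones, so the level in every library is given for each gene on which a result turns.

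Every mouse was 3 months old, of the strain label C57BL/6 & B6D2, and carried Prss56Cre with the R26tdTom reporter. The strain label does not say how these backgrounds were divided among the groups. A difference in background between groups therefore cannot be told apart from genotype or skin state. Nf1-KO mice had in addition the genotype Nf1flox/-, a floxed and a null allele. Control uninjured and Nf1-KO uninjured samples were intact whole skin, and control injured and Nf1-KO injured samples were whole skin taken 14 days after injury. The Prss56 promoter drives Cre, and by the title of the series the knockout lies in boundary cap cells. As written, the null allele is present with or without Cre in every cell, and its part cannot be told apart from that of recombination. The labels number 3 samples per group without saying that they are separate animals, so p-values measure the spread between these samples.

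Nf1 encodes neurofibromin, a GTPase-activating protein that switches RAS off. Loss of both alleles in the Schwann cell lineage is the origin of neurofibromas, tumours that also hold fibroblasts, mast cells, macrophages and vessels. Boundary cap cells sit where nerve roots join the neural tube and give rise to Schwann cells of roots and skin nerves. Skin 14 days after a wound is in repair, with a renewed epidermis, new matrix and vessels, and immune cells.

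The tissue label was checked against keratins of the epidermis. Krt14, of the basal layer, stood at 2974 to 9426 CPM (TMM-scaled counts per 1e+06 counts) over the 12 libraries, and Krt10, of the layers above it, at 2170 to 10942 CPM. Library totals ran from 8817013 to 16809687 counts. Sex markers moved with skin state in both genotypes: Xist, the RNA that silences 1 X chromosome in female cells, ran from 0.709 to 2.95 raw CPM before injury and from 436 to 627 after it. Ddx3y, a helicase gene on the Y chromosome, ran from 68.2 to 93.3 and from 0 to 0.0595 raw CPM. A genotype by injury interaction and a genotype by sex interaction therefore cannot be told apart here.

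The 1 sequence that helps to read the results belongs to a locus where 3 of the named genes overlap. Glul (chromosome 1, 153899944 to 153909723, plus strand, mm10) encodes glutamine synthetase. The miRNA gene Mir8114 (153899926 to 153900036, plus strand) lies over its start, and Teddm2 (153849542 to 153900228, minus strand) reaches into it from the other side. The mature miRNA maps to 153899989 to 153900009, inside Glul, and its 21 bases are shown from RefSeq (GRCm38.p6), with the seed, bases 2 to 8, in capitals.
mmu-miR-8114: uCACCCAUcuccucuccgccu
The library kit makes fragments of long RNA and does not mark the strand, so reads over this stretch cannot be assigned to Glul, Mir8114 or Teddm2 with certainty. Each of the 3 is counted as a gene in the totals given here, and they are not 3 separate observations.

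Nf1 itself (chromosome 11, 79339693 to 79581612) was present in every library. Its level in libraries 1 to 3 of uninjured skin was 14.3, 11.8 and 9.21 CPM in control and 8.96, 9.96 and 9.58 in Nf1-KO mice. In injured skin it was 16.6, 9.56 and 11.8 CPM in control skin and 10.6, 8.75 and 15.8 in Nf1-KO skin. The genotypes overlapped in both skin states. The log2 interaction was 0.20 (SE 0.40, 95% interval -0.64 to 1.04, adjusted p = 0.88 in edgeR), and leaving out single libraries gave -0.09 to 0.44. A gene count includes reads from recombined and intact alleles, so the genotype labels are not checked by it. For Prss56, the gene of the Cre promoter, uninjured libraries 1 to 3 gave 9, 12 and 3 counts in control and 3, 10 and 1 in Nf1-KO mice. Control injured libraries gave 0, which is at least 10.4-fold lower than in control uninjured skin against a floor of 3 counts over the group. Nf1-KO injured libraries held 0, 9 and 2 counts. No library held more than 12 counts. The background measure described below was at most 0.00656 CPM per kb in each library with 0 counts. In the libraries with counts it was at least 0.0179. Whether the Prss56 counts were background was not tested.

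No gene had a called interaction. In edgeR's quasi-likelihood test 0 of 23635 genes tested (0%) reached an adjusted p under 0.05, and the smallest adjusted p was 0.0984, shared by Zbtb16, Glul, Brinp3 and the predicted gene Gm8210. At an unadjusted p under 0.05 there were 2541 genes (10.8%), of which 2020 (8.55%) were above 0 and 521 (2.2%) below. Limma voom called 0 genes, DESeq2 called 37 (7 above 0 and 30 below), and edgeR without the expression filter called 236 (136 above and 100 below), of which 34 were also called by DESeq2. The 236 were among 49676 genes tested without the filter. Of the 24 genes named by the rule for their smallest p, 12 above 0 and 12 below, 22 were called without the filter and 15 by DESeq2. These 24 were picked by p from the same counts, so such calls add no separate support. The genes below are therefore those with the smallest p in a comparison with no call, and each value is a measurement with its error.

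The simple effects show where the differences between groups lay. Since the sex markers separate all uninjured from all injured libraries, what is called an injury change throughout cannot be told apart from a difference between the sexes. With injury, 13072 genes (55.3%) changed in control skin, with 5393 higher (22.8%) and 7679 lower (32.5%), and 8851 genes (37.4%) in Nf1-KO skin, with 4506 higher (19.1%) and 4345 lower (18.4%). Both called sets held 7557 genes, 57.8% of the control set and 85.4% of the Nf1-KO set, and 7554 of them had the same sign. The 3 of opposite sign were Ifi202b, Cbr3 and Teddm2. Genotype called 7 genes in uninjured skin (0.0296%), 3 of them Glul, Mir8114 and Teddm2, and 0 in injured skin (0%), where 2532 genes (10.7%) had an unadjusted p under 0.05, DESeq2 called 124 and voom called 1. Among genes averaging 2 CPM or more, 619 of the 669 above 0 at an unadjusted p under 0.05 were lower in Nf1-KO than in control before injury and higher after it. Of the 493 below 0, 422 had the reverse order. These comparisons share their groups, so the counts describe the shape of the interaction and add no separate evidence.

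**Figure D1:**
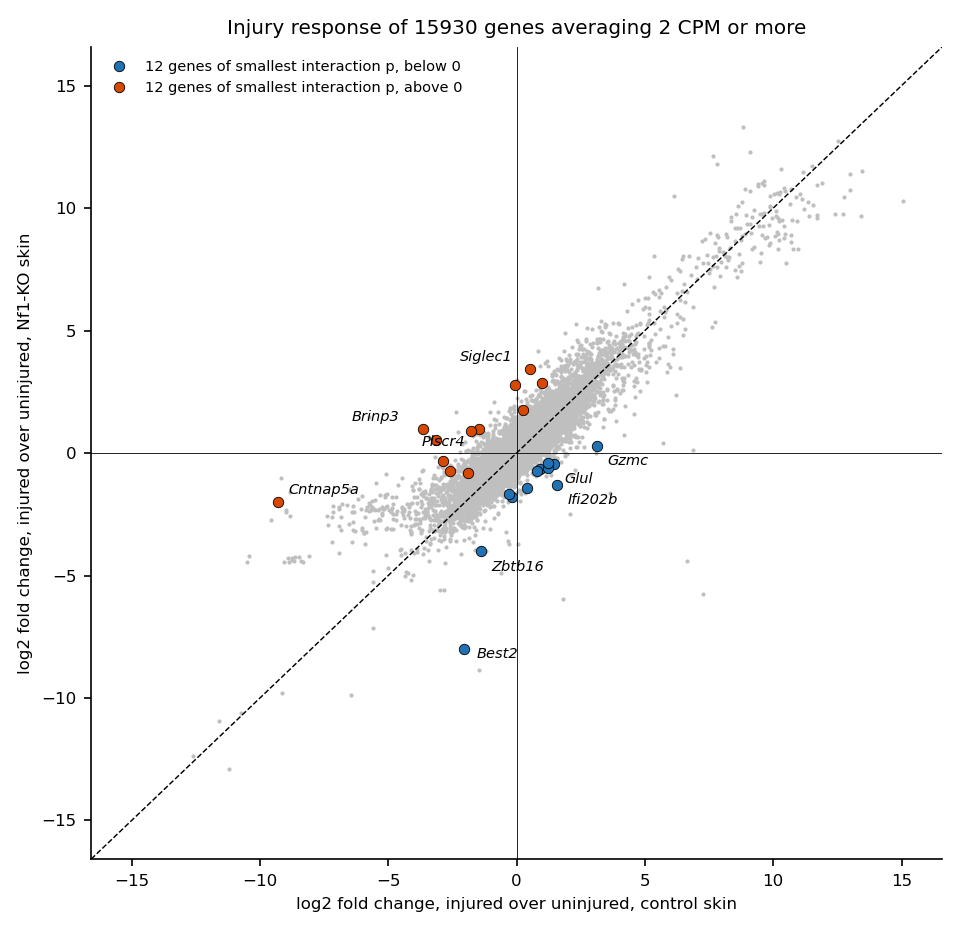
Log2 injury response in control skin (x axis) and in Nf1-KO skin (y axis) for the 15930 genes averaging 2 CPM or more, with the 12 named genes above 0 and the 12 below 0 marked. Most points lie along the line of equal response, and Ifi202b and Cbr3 sit where control is above 0 and Nf1-KO below.

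The side of 0 on which genes fell followed their abundance. The median interaction was 1.52 among the 4862 genes averaging under 1 CPM, 0.72 among the 2843 genes from 1 to 2 CPM, and 0.26 among the 4820 genes from 2 to 10 CPM. It was -0.02 among 9043 genes from 10 to 100 CPM and -0.25 among the 2067 genes of 100 CPM or more, where 145 genes were below 0 at an unadjusted p under 0.05 and 11 above. Over all genes tested the median was 0.17, or 0.16 with the 1315 genes that have a group at 0 counts put at their bound, and with library totals as the only scaling it was 0.29. The 15930 genes at 2 CPM or more had a median of 0.01, with 669 (4.2%) above 0 and 493 (3.09%) below at an unadjusted p under 0.05. At any p, 50.6% of them were above 0 and 49.4% below. From 10 to 100 CPM, 253 of 9043 genes were above 0 at such a p and 281 below. Shares of all genes tested, set beside gene lists in what follows, include the genes under 2 CPM, which lay mostly above 0. The balance at 2 CPM or more depended on the setting: the median was below 0 in 14 of 24 alternatives and ran from -0.15 to 0.13, and more genes were below than above at such a p in 13. Median-of-ratios scaling gave 570 above and 701 below, library totals 991 and 316, and the fit without X and Y genes 483 and 845. Without control uninjured library 3 there were 560 and 1140, and without Nf1-KO uninjured library 2, 507 and 1188. In the 15930 genes the median SE was 0.36, and for 6286 of them (39.5%) the 95% interval lay within 1 log2 unit of 0.

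Background, by the measure used here, also differed between the groups. As its measure, the summed level of 1744 olfactory, vomeronasal and trace amine receptor genes, best known from sensory epithelia of the nose although some olfactory receptors are reported in skin cells, was 0.337, 0.265 and 0.0953 CPM per kb in the control and 0.132, 0.207 and 0.111 in the Nf1-KO libraries before injury. In control injured libraries it was 0.00236, 0.00306 and 0.00656, and in Nf1-KO injured ones 0.00228, 0.0179 and 0.0532. All 6 uninjured libraries were above all 6 injured ones, and Nf1-KO injured library 3 was the highest of the injured. Whether the reads on these receptor genes were background was not tested. The receptor level separated the skin states, so as a covariate it overlaps with the injury change and cannot adjust for background apart from it. With the covariate the median SE of the injury change in control skin was 0.75, against 0.37 without it. Values with the background covariate are given below under this limit. The median interaction with it was -0.01 and 895 genes had an unadjusted p under 0.05, 484 above 0 and 411 below. Without the library of highest background in each group it was 574 above and 626 below. Values from the second setting, added after the data had been seen, are given below as without the 4 high-background libraries. It left out library 1 of control and library 2 of Nf1-KO skin before injury, and library 3 of each genotype after it. High means highest within the group. Control injured library 3, at 0.00656 CPM per kb, was below Nf1-KO injured library 2, at 0.0179, which stayed in. Since Nf1-KO injured library 3 is among the 4, these values are not separate from those without that library alone. They cannot tell background apart from other features of the libraries left out.

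**Figure D2:**
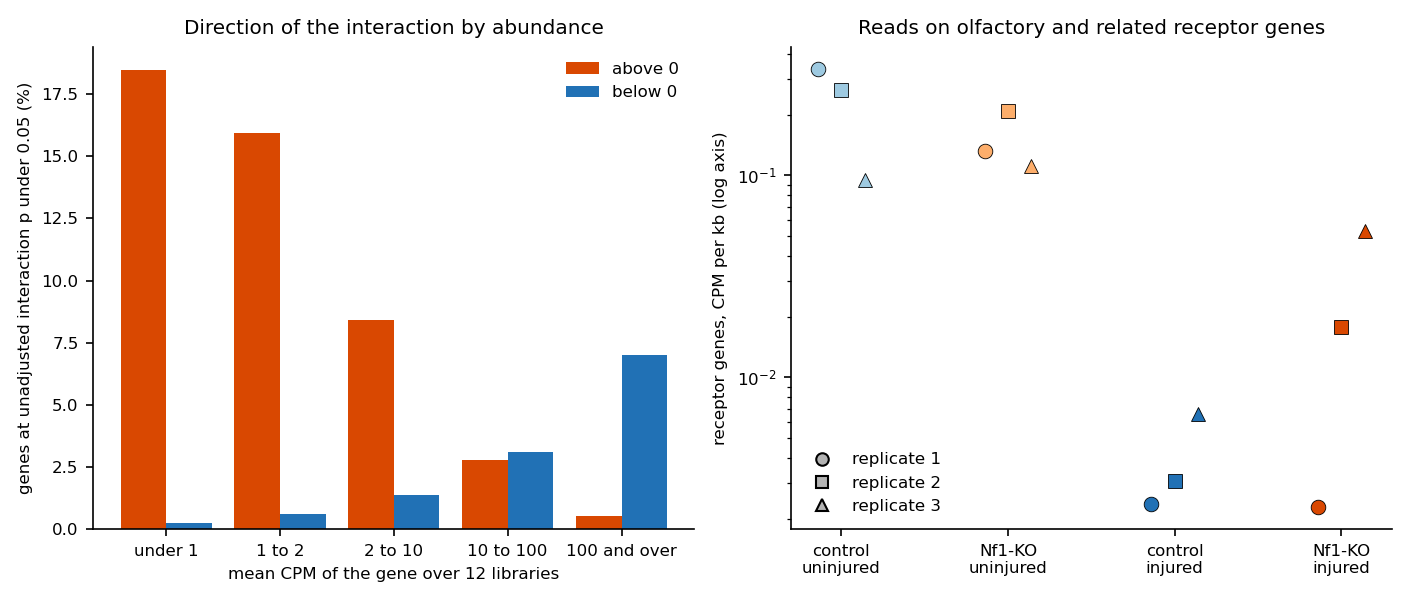
Left, percent of genes above and below 0 at an unadjusted p under 0.05 in each class of mean CPM. Right, summed olfactory, vomeronasal and trace amine receptor level (CPM per kb, log axis) in each library, highest in the uninjured groups, where it was 0.0953 to 0.337.

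Zbtb16 had the smallest p of all genes. It encodes PLZF, a zinc finger transcription factor induced by glucocorticoids (chromosome 9, 48654297 to 48836222). Its level was 43.2, 33.9 and 55.3 CPM in control uninjured libraries 1 to 3 and 103, 97.5 and 114 in Nf1-KO uninjured ones. Its level after injury was 9.86, 22.2 and 19 CPM in control skin and 4.3, 9.03 and 6.63 in Nf1-KO skin. The genotypes did not overlap in either skin state, with Nf1-KO higher before injury and lower after it. Zbtb16 fell with injury by 1.37 on the log2 scale in control skin (adjusted p = 0.00121) and by 3.98 in Nf1-KO skin (adjusted p = 4.47e-07). The log2 interaction of -2.61 (SE 0.41, adjusted p = 0.0984) is a 6.1-fold ratio of ratios. It was called in 6 of 24 alternatives, over which the adjusted p ran from 9.55e-12 to 0.532.

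Glucocorticoids are steroid hormones of the adrenal gland that are released under stress and that act on skin through a nuclear receptor. Of 14 measured genes of a glucocorticoid response list, 11 (78.6%) were below 0, beside 39.6% of all genes and 49.4% of those at 2 CPM or more. In the class of 100 CPM or more, 550 of 2067 genes were above 0, so most genes of that class were below 0 as well. Of the 14, 6 were below 0 and 1 above at an unadjusted p under 0.05, beside 2.2% and 8.55% of all genes. Among genes at 2 CPM or more the shares were 3.09% and 4.2%, and at 100 CPM or more 145 and 11 of 2067 genes. The list's median was -0.73, against 0.17 over all genes and -0.25 in the class of 100 CPM or more. It stayed below 0 in each of the 24 alternatives, and it was -0.89 with the background covariate and -1.07 without the 4 high-background libraries.

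Fkbp5, a co-chaperone that dampens the glucocorticoid receptor, was at 33.7, 34.8 and 117 CPM in control uninjured libraries and at 218, 223 and 223 in Nf1-KO uninjured ones. After injury it was at 33.9, 67 and 39.2 CPM in control skin and at 16.4, 27.5 and 26.9 in Nf1-KO skin. Both skin states showed no overlap of genotypes. The log2 interaction was -2.82 (SE 0.64, adjusted p = 0.442), and without control uninjured library 3, which stood apart from the other controls, it was -3.78 (adjusted p = 0.0012 in edgeR). Over all settings in which single libraries were left out, this was the one in which Fkbp5, Ifi202b and Zbtb16 were called together.

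Tsc22d3, which encodes the glucocorticoid-induced protein GILZ, was at 332, 574 and 838 CPM in control uninjured libraries and at 811, 1003 and 920 in Nf1-KO uninjured ones. In injured skin it was at 124, 208 and 147 CPM in control and at 59.2, 123 and 151 in Nf1-KO, so the genotypes overlapped in both states (log2 interaction -1.18, SE 0.49, adjusted p = 0.45). The metallothioneins Mt1 and Mt2, which bind zinc and copper, were at -1.22 and -1.08. For both, Nf1-KO uninjured library 3 was the highest uninjured one, with 1412 CPM of Mt1 against 301 to 518 in the other 5. Without it their interactions were -0.54 and -0.51. Cdkn1a, the cell cycle inhibitor p21, was at -0.87. Dusp1, a phosphatase that switches MAP kinases off, was the member above 0 at an unadjusted p under 0.05, at 1.63 (SE 0.52). Its level fell with injury in control skin by 2.00 on the log2 scale (adjusted p = 0.000827). Dusp1 was at 243, 223 and 141 CPM in control uninjured and at 73.6, 110 and 82.4 in Nf1-KO uninjured libraries. In injured skin it was at 47.6, 45.5 and 59 CPM in control and at 122, 45.6 and 38.6 in Nf1-KO. In the list, Fkbp5, Tsc22d3, Mt1, Mt2, Cdkn1a and Dusp1 were named after their values were seen.

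**Figure D3:**
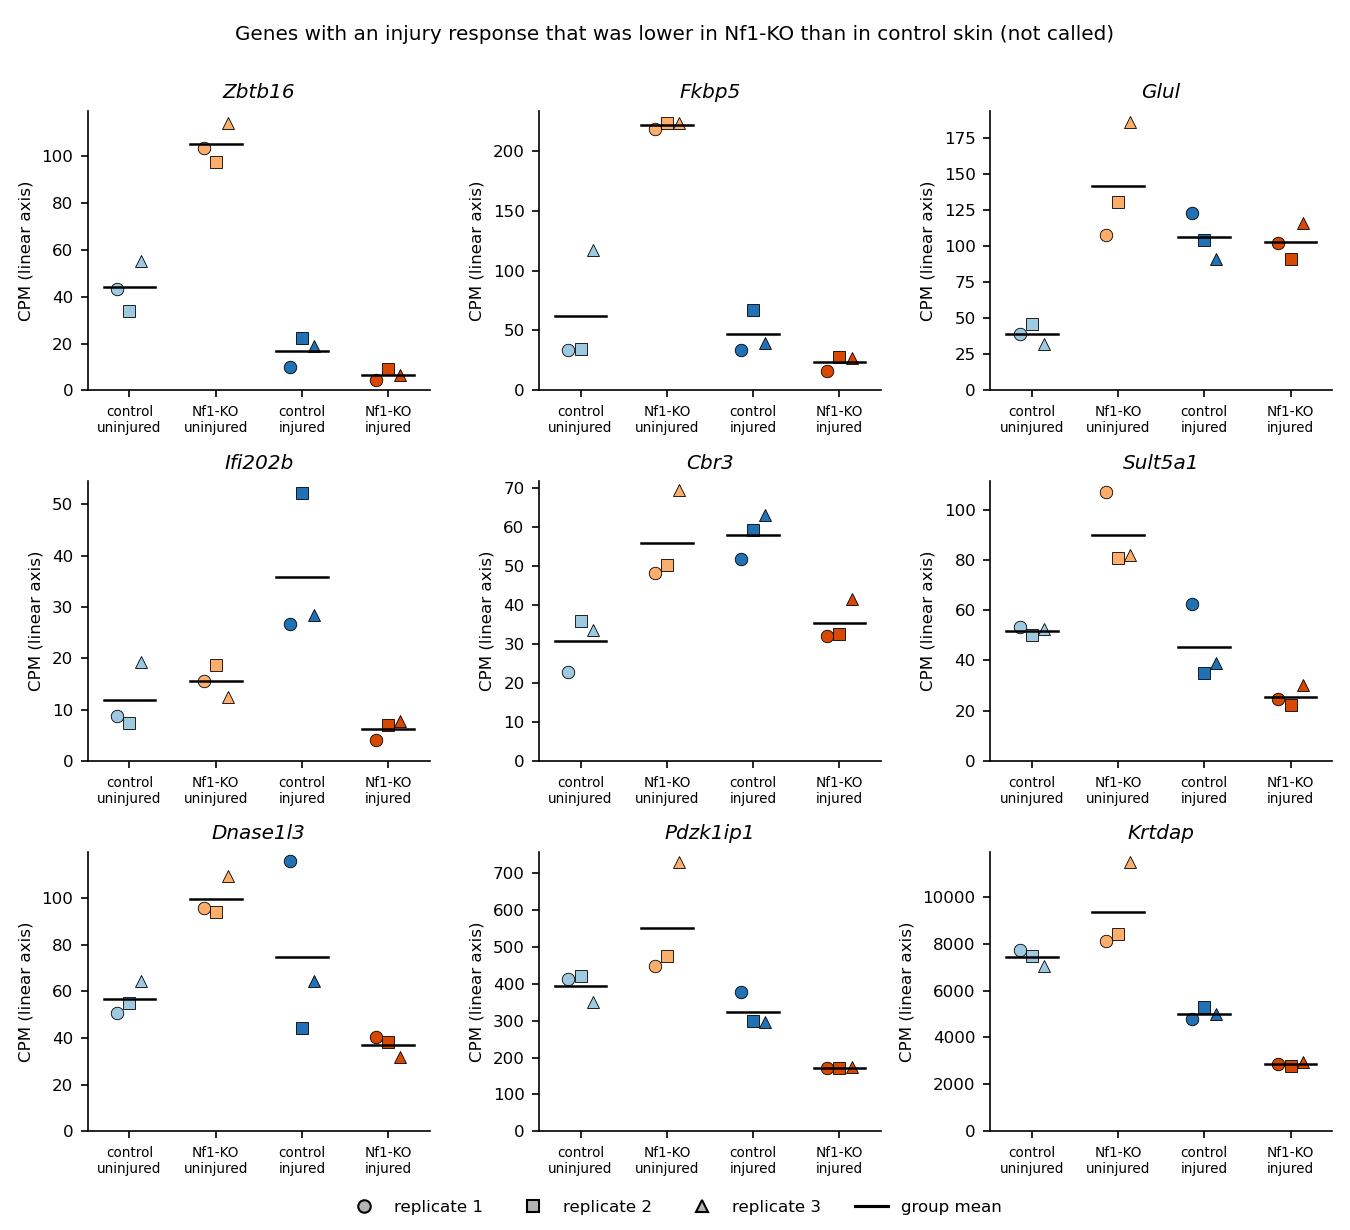
Level (CPM, linear axis from 0) of Zbtb16, Fkbp5, Glul, Ifi202b, Cbr3, Sult5a1, Dnase1l3, Pdzk1ip1 and Krtdap in each library, with bars at the mean of 3 libraries per group. In each panel the mean of Nf1-KO is above that of control in uninjured skin, and in injured skin it is at or below it.

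For Glul the genotypes differed before injury. Its level before injury was 39.2, 46 and 31.9 CPM in control skin and 108, 130 and 186 in Nf1-KO skin. After injury it was at 123, 104 and 91.3 CPM in control skin and at 102, 90.8 and 116 in Nf1-KO skin. The uninjured groups did not overlap and the injured groups did. Glul was higher in Nf1-KO than in control uninjured skin by 1.86 on the log2 scale (SE 0.23, adjusted p = 0.00718). Over 24 alternatives this difference ran from 1.62 to 1.99 and was called in 21. It was not called without control uninjured library 1 (adjusted p = 0.0912 in edgeR), without control uninjured library 3 (0.0575) or without the 4 high-background libraries (0.095). Glul rose with injury in control skin by 1.44 (adjusted p = 0.000137). In Nf1-KO skin the injury change was -0.46 (adjusted p = 0.107), and the interaction was -1.90 (SE 0.31, adjusted p = 0.0984). The reads counted for Mir8114, which is shown with its sequence above, gave 4.7, 4.76 and 4.29 CPM in control and 11.2, 13.2 and 20.2 in Nf1-KO skin before injury. In injured skin they gave 9.24 to 11.9 CPM in the 6 libraries, and the interaction was -1.81 (SE 0.36, adjusted p = 0.267). Teddm2 had -1.53 (adjusted p = 0.442). Nuak1, a kinase related to AMPK, lies on chromosome 10 and had a like pattern: 12.9 to 14.1 CPM in control uninjured libraries against 29.4 to 49.5 in Nf1-KO uninjured ones, and 21.4 to 39.2 in the 6 injured ones (interaction -1.63, SE 0.33).

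Ifi202b and Cbr3 were 2 of the genes that injury changed in opposite directions. Ifi202b, an interferon-inducible DNA-binding protein gene (chromosome 1, 173962568 to 173982744), was at 8.75, 7.44 and 19.2 CPM in control uninjured libraries and at 15.5, 18.6 and 12.4 in Nf1-KO uninjured ones. In injured skin it was at 26.7, 52.1 and 28.5 CPM in control skin and at 4.17, 6.98 and 7.75 in Nf1-KO skin, with no overlap. It rose by 1.59 in control skin (adjusted p = 0.00212) and fell by 1.30 on the log2 scale in Nf1-KO skin (adjusted p = 0.0133), and the interaction was -2.90 (SE 0.52, adjusted p = 0.172). Ifi202b belongs to a cluster of related genes, among which reads could be divided. Cbr3, a carbonyl reductase, was at 22.9, 35.9 and 33.6 CPM in control uninjured libraries and at 48.1, 50.3 and 69.4 in Nf1-KO uninjured ones. Its level after injury was 51.6, 59.2 and 63.1 CPM in control skin and 31.9, 32.5 and 41.4 in Nf1-KO skin. It rose by 0.91 (adjusted p = 0.00203) in control and fell by 0.67 (adjusted p = 0.0209) in Nf1-KO skin, and the interaction was -1.58 (SE 0.30, adjusted p = 0.181).

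Further genes below 0 had roles in metabolism, nucleic acid clearance and killing by lymphocytes. Sult5a1, a sulfotransferase, was at 50.1 to 53.2 CPM in control uninjured libraries and at 81 to 107 in Nf1-KO uninjured ones, then at 34.8 to 62.6 in control and 22.1 to 30.1 in Nf1-KO injured ones (interaction -1.62, SE 0.31, adjusted p = 0.186). Dnase1l3, a secreted nuclease that degrades DNA of dying cells, was at 50.9 to 64.4 and 94.2 to 109 CPM before injury and at 44.4 to 116 and 31.8 to 40.5 after it (interaction -1.83, SE 0.37). Both genes had Nf1-KO above control before injury and below it afterwards, without overlap. Gzmc, a granzyme of cytotoxic lymphocytes, was at 0.767 to 1.26 CPM in control uninjured libraries and at 1.25 to 3.52 in Nf1-KO uninjured ones. It rose in control skin to 6.55 to 11.1 CPM (log2 change 3.12, adjusted p = 4.81e-05), and it was at 2.4 to 3.01 in Nf1-KO injured skin (interaction -2.85, SE 0.58). Best2, a chloride channel of sweat glands and other secretory epithelia, had 306 counts in Nf1-KO uninjured libraries and 1 count in Nf1-KO injured ones. Scaled to the library totals of each group, this is a ratio of 407 with a 95% exact interval of 72.6 to 16147 that covers counting error only. The fitted ratio was 258. In control skin the counts were 167 and 44.

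Genes of the differentiating epidermis lay mostly below 0. Of 20 measured genes of upper layers, 15 (75%) were below 0, beside 39.6% of all genes and 49.4% of those at 2 CPM or more. In the class of 100 CPM or more, 550 of 2067 genes were above 0, so most genes of that class were below 0 as well. Of the 20, 7 were below 0 and none above at an unadjusted p under 0.05, beside 2.2% and 8.55% of all genes. Among genes at 2 CPM or more the shares were 3.09% and 4.2%, and at 100 CPM or more 145 and 11 of 2067 genes. The list's median was -0.56, against -0.25 for genes of 100 CPM or more. Krtdap, a secreted protein of differentiating keratinocytes, was at 7704, 7478 and 7036 CPM in control uninjured libraries and at 8121, 8399 and 11480 in Nf1-KO uninjured ones. In injured skin it was at 4789, 5291 and 4981 CPM in control and at 2858, 2770 and 2937 in Nf1-KO, with no overlap. Its injury change was -0.56 in control skin (adjusted p = 0.0525) and -1.71 in Nf1-KO skin (adjusted p = 6.2e-05), for an interaction of -1.15 (SE 0.33, adjusted p = 0.442). Lor, the main protein of the cornified envelope, was at 2976 to 3778 CPM in control injured and at 1939 to 2477 in Nf1-KO injured libraries (interaction -1.14, SE 0.37). Krt77 and Krt10, keratins of the upper layers, were at -0.99 and -0.92, Sbsn at -0.92, and the shedding proteases Klk5 and Klk7 at -0.80 and -0.82. Only Krtdap was named by the rule, and the other 6 after their values were seen.

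The summed level of the 20 genes was 38022 to 45363 CPM in control uninjured and 41602 to 59035 in Nf1-KO uninjured libraries. In injured skin it was 24759 to 32237 in control and 16094 to 19304 in Nf1-KO libraries, without overlap. Leaving out Nf1-KO uninjured library 3, the highest, moved the median to -0.31 with 4 genes at an unadjusted p under 0.05. With the background covariate the median was -0.56 and 2 genes had such a p, and without the 4 high-background libraries it was -0.38 and 3 genes. Since skin was sampled whole, fewer cells of a type and less RNA per cell cannot be told apart. Pdzk1ip1, a small membrane protein of epithelia, followed the same order, at 350 to 422 and 447 to 730 CPM in uninjured control and Nf1-KO libraries, then at 296 to 378 and 172 to 174 in injured ones (interaction -1.39, SE 0.31).

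**Figure D4:**
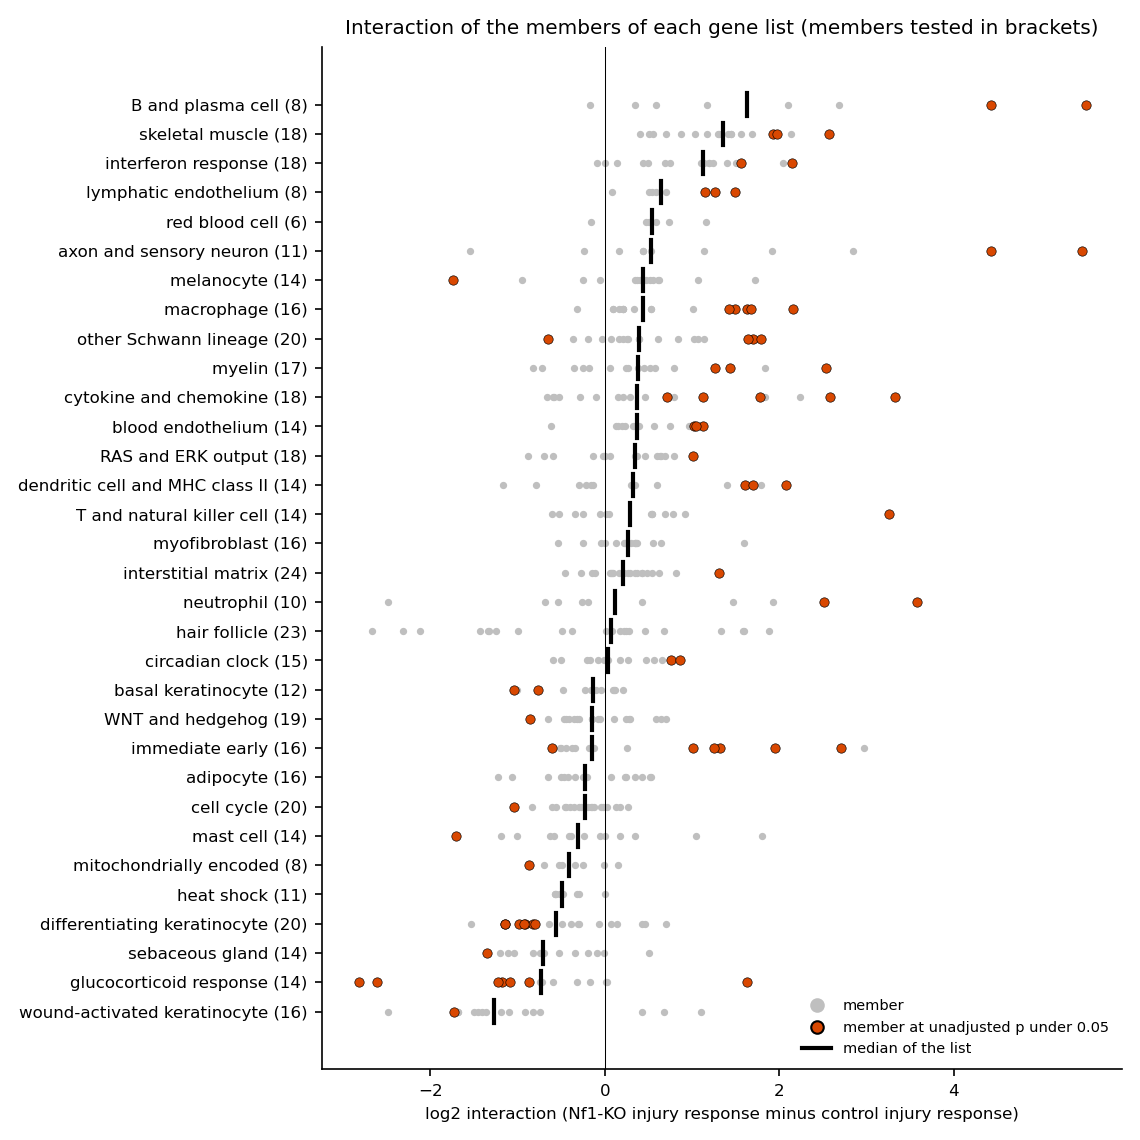
Log2 interaction of each measured member (points) and the median (bar) of 32 gene lists, with members at an unadjusted p under 0.05 in orange. Skeletal muscle members all lie above 0, and most differentiating keratinocyte and glucocorticoid response members lie below it. Over all genes tested, 60.4% were above 0 and 39.6% below.

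Brinp3, Plscr4 and Thbs1 were among the genes above 0. Brinp3, a neural protein gene on chromosome 1 (146494760 to 146902472), was at 6.87, 4.76 and 2.4 CPM in control uninjured libraries and at 2.15, 4.21 and 3.16 in Nf1-KO uninjured ones. After injury it was at 0.444, 0.443 and 0.2 CPM in control skin and at 8.33, 2.4 and 8.18 in Nf1-KO skin. The uninjured groups overlapped and the injured ones did not. It fell in control skin by 3.66 on the log2 scale (adjusted p = 0.000206) and changed by 0.98 in Nf1-KO skin (adjusted p = 0.122), for an interaction of 4.64 (SE 0.78, adjusted p = 0.0984).

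Plscr4, a phospholipid scramblase of the cell membrane (chromosome 9, 92457373 to 92492456), was at 59.6, 53 and 52.2 CPM in control uninjured libraries and at 27.3, 8.28 and 12.6 in Nf1-KO uninjured ones. After injury it stood at 6.84, 9.56 and 6.01 CPM in control skin and at 13.5, 12.3 and 13.2 in Nf1-KO skin. The genotypes did not overlap in either state. It fell with injury in control skin by 2.87 on the log2 scale (adjusted p = 1.65e-05), its change in Nf1-KO skin was -0.30 (adjusted p = 0.467), and the interaction was 2.57 (SE 0.46, adjusted p = 0.172).

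Thbs1, which encodes thrombospondin 1, a matrix protein that activates TGF-beta and restrains vessel growth, differed mainly before injury. It was at 30.9, 47.2 and 77.7 CPM in control uninjured libraries and at 24.1, 19.3 and 17.8 in Nf1-KO uninjured ones. Injured libraries held 60.7, 70 and 52.7 CPM in control and 80.6, 73.1 and 51.3 in Nf1-KO skin. It rose in Nf1-KO skin by 1.74 (adjusted p = 0.000217), its change in control skin was 0.23 (adjusted p = 0.487), and the interaction was 1.51 (SE 0.39, adjusted p = 0.442). Without control uninjured library 3, the highest of its group, it was 1.02.

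Of the other genes above 0 named by the rule, Cntn1, an axonal adhesion molecule, was at 9.69 to 13.4 and 5.73 to 11 CPM in uninjured control and Nf1-KO libraries and at 1.8 to 2.04 and 3.46 to 6.28 in injured ones (interaction 1.88, SE 0.47). Nf1-KO injured libraries 1 to 3 held 3.46, 4.3 and 6.28 CPM of Cntn1, the order of their receptor background. Control uninjured libraries, at 9.69, 13.4 and 11.4 CPM, did not follow that order. The interaction of Cntn1 ran from 1.50 to 2.17 over 24 alternatives and was called in 0. Mtm1, a phosphoinositide phosphatase gene on chromosome X, was at 32.8 to 34.2 and 19.9 to 23.1 CPM before injury and at 7.73 to 10.7 and 11.4 to 12.7 after it (interaction 1.07, SE 0.27). Neither pair of injured groups overlapped. Cntnap5a, a neurexin family gene, had 224 counts in control uninjured libraries and 0 in control injured ones, at least 96.9-fold lower against the floor, while the counts in Nf1-KO skin were 124 and 33. In Nf1-KO injured libraries 1 to 3 it was at 0.0641, 0.423 and 2.24 CPM, the order of the receptor background in those libraries. Its log2 interaction was 7.30 (adjusted p = 0.442 in edgeR), 4.44 with the background covariate and 5.39 without the 4 high-background libraries. Control injured skin held no count, so these fitted values depend on the prior count. Siglec1, a receptor of resident macrophages, was at 1.26 to 3.67 and 0.542 to 1.76 CPM in uninjured libraries and at 3.36 to 4.74 and 5.43 to 20.3 in injured ones (interaction 2.90, SE 0.75).

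**Figure D5:**
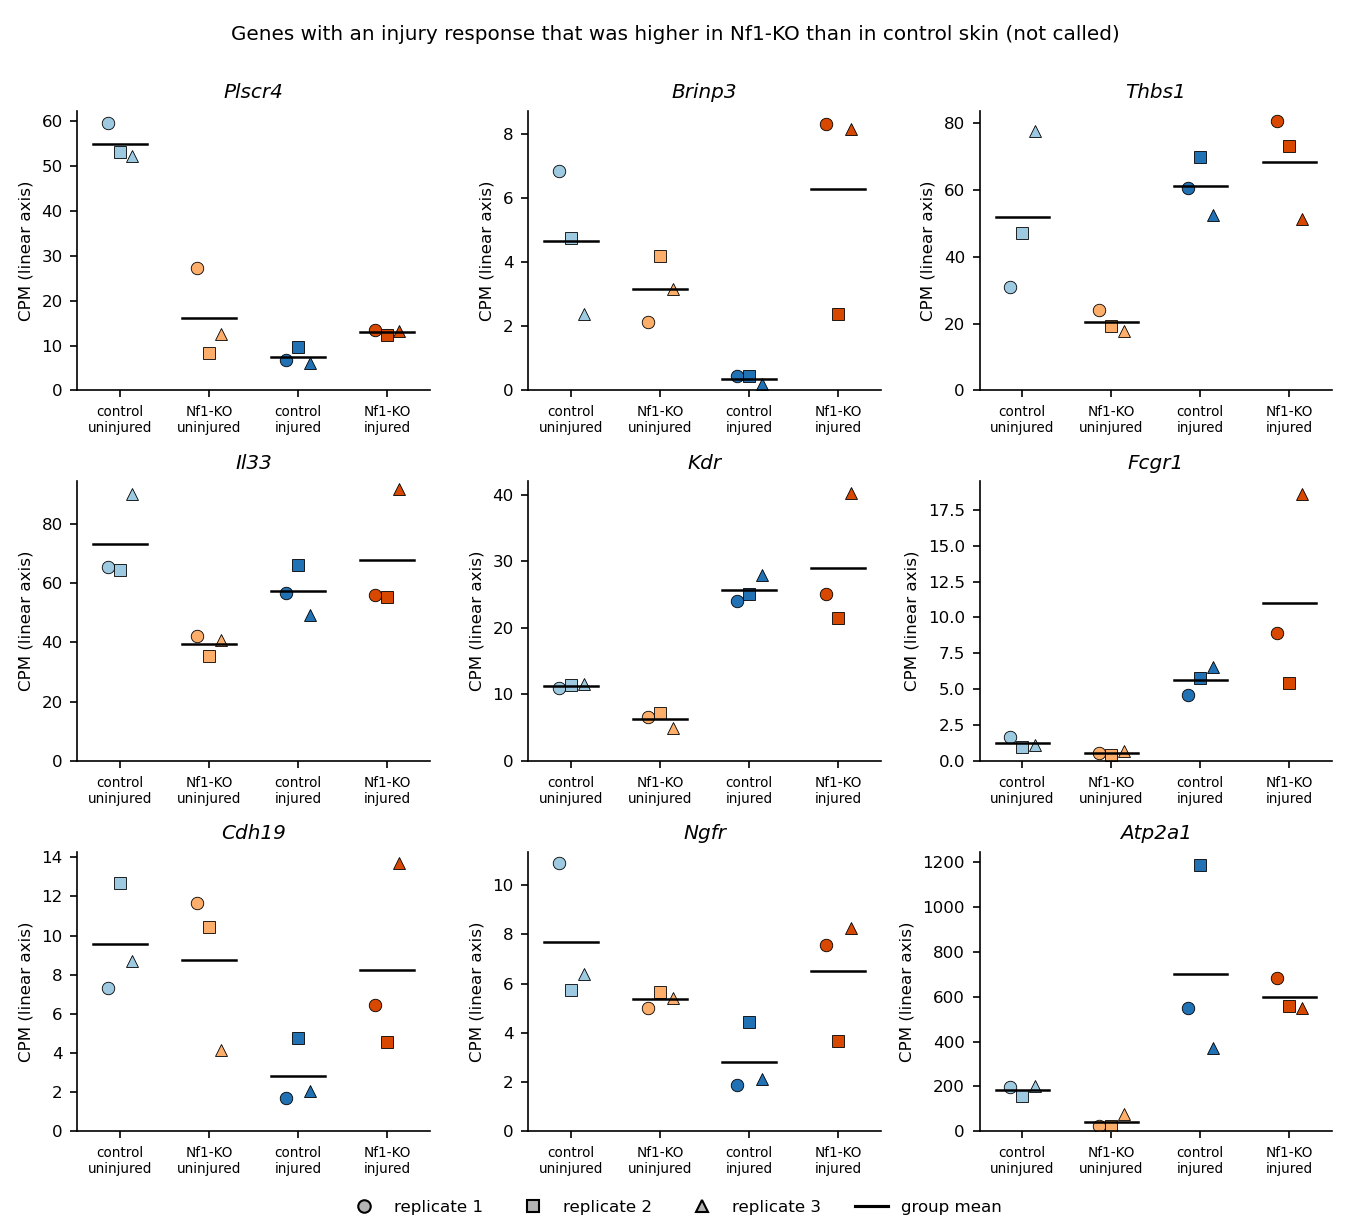
Level (CPM, linear axis from 0) of Plscr4, Brinp3, Thbs1, Il33, Kdr, Fcgr1, Cdh19, Ngfr and Atp2a1 in each library, with bars at the mean of 3 libraries per group. For Plscr4 and Brinp3 the 3 Nf1-KO injured libraries lie above the 3 control injured ones, and for Cdh19 and Fcgr1 Nf1-KO injured library 3 is the highest injured one.

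Macrophage genes were mostly above 0, with 1 library high among them. Of 16 measured markers 15 were above 0, beside 60.4% of all genes. At an unadjusted p under 0.05 there were 5 above 0 (Fcgr1, Ccr2, Itgam, Cx3cr1 and Trem2), beside 8.55% of all genes. The median was 0.43 against 0.17 over all genes. Fcgr1, a high-affinity receptor for IgG, was at 1.69, 0.998 and 1.14 CPM in control uninjured libraries and at 0.538, 0.383 and 0.723 in Nf1-KO uninjured ones. It rose with injury in both genotypes, to 4.62, 5.76 and 6.55 CPM in control skin and 8.91, 5.43 and 18.6 in Nf1-KO skin (log2 changes 2.15 and 4.31, adjusted p = 0.000995 and 9.29e-06). The interaction was 2.16 (SE 0.66, adjusted p = 0.442), and 1.54 without Nf1-KO injured library 3. Ccr2, the chemokine receptor that recruits monocytes, was at 16.5 to 23.9 CPM in control injured libraries and at 48.4, 23.2 and 79.1 in Nf1-KO injured ones (interaction 1.50, SE 0.51). Trem2, a lipid receptor of macrophages, was at 19.2, 10.7 and 50.3 CPM in Nf1-KO injured libraries against 5.51 to 12.7 in control ones (interaction 1.63, SE 0.76). Without Nf1-KO injured library 3 the list had 8 genes above 0 and 8 below, 2 with an unadjusted p under 0.05 and a median of 0.13, and without the 4 high-background libraries the median was 0.05. Ccr2, Itgam, Cx3cr1 and Trem2 were named after their values were seen.

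Signals between immune and skin cells gave 5 of 18 cytokine and chemokine genes above 0 at an unadjusted p under 0.05 and none below, beside 8.55% of all genes above 0, with a median of 0.37. There were 4 such genes with the background covariate and 0 without the 4 high-background libraries. Il33, an alarmin released by damaged epithelium and stroma, was at 65.5, 64.3 and 89.9 CPM in control uninjured libraries and at 42.3, 35.5 and 40.7 in Nf1-KO uninjured ones. After injury it was at 56.5, 66.1 and 49.3 CPM in control skin and at 56, 55.3 and 91.6 in Nf1-KO skin. The groups were separate before injury and overlapped after it, for an interaction of 1.13 (SE 0.31, adjusted p = 0.442). Cxcl12, a stromal chemokine, rose with injury in both genotypes, from 31.2 to 37.2 CPM to 107 to 137 in control skin and from 21 to 39.4 CPM to 167 to 195 in Nf1-KO skin (interaction 0.71, SE 0.30). It was named after its values were seen.

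Of 18 interferon response genes, 17 were above 0 with a median of 1.13, and 2 (11.1%), Ifit2 and Usp18, at an unadjusted p under 0.05. Over all genes tested 60.4% were above 0, and 8.55% at such a p, so the share at such a p was near that of all genes. Their summed level was 159 to 186 CPM in control uninjured, 119 to 210 in Nf1-KO uninjured, 169 to 251 in control injured and 212 to 661 in Nf1-KO injured libraries. The median was 0.28 without Nf1-KO injured library 3, 0.14 with the background covariate and 0.26 without the 4 high-background libraries.

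Skeletal muscle genes were above 0 in 18 of 18 cases, beside 60.4% of all genes. Skin of the mouse trunk lies on a thin muscle sheet, and these genes encode proteins of skeletal muscle fibres. The list's median was 1.36, against 0.17 over all genes. At an unadjusted p under 0.05 there were 3 genes above 0 (16.7%), Atp2a1, Myh4 and Ckm, beside 8.55% of all genes. Atp2a1, the calcium pump of fast muscle fibres, was at 198, 159 and 202 CPM in control uninjured libraries and at 25.5, 23.9 and 75.5 in Nf1-KO uninjured ones. It was at 548, 1188 and 371 CPM in control injured libraries and at 684, 558 and 549 in Nf1-KO injured ones. The uninjured groups were separate and the injured ones overlapped. Atp2a1 rose with injury by 1.91 in control (adjusted p = 0.00436) and by 3.84 in Nf1-KO skin (adjusted p = 0.000115), and the interaction was 1.93 (SE 0.65, adjusted p = 0.442). Myh4, the myosin of the fastest fibres, and Ckm, muscle creatine kinase, were at 2.57 (SE 1.05) and 1.97 (SE 0.86) and were named after their values were seen.

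The summed level of the muscle list was 1047 to 1658 CPM in control uninjured libraries, 241 to 873 in Nf1-KO uninjured ones, 3492 to 14238 in control injured ones and 6062 to 8891 in Nf1-KO injured ones. The range of the control injured libraries covered that of the Nf1-KO injured ones. Without Nf1-KO uninjured library 3 the median was 2.52, and without control injured library 2 it was 2.07, with 12 genes at an unadjusted p under 0.05 in each. Without the 4 high-background libraries the median was 0.43, 15 genes were above 0 and none had such a p. How much muscle each skin piece held was not measured apart from these genes.

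Genes of nerve and of the Schwann cell lineage, from which neurofibromas arise, gave small counts. Of 17 myelin genes, 3 (Pmp2 and Cldn19 among them) were above 0 at an unadjusted p under 0.05 and none below, and of 20 other Schwann lineage genes, 3 (Ngfr, Foxd3 and Cdh19) were above and 1 (Pou3f1) below. These stand beside 8.55% of all genes above and 2.2% below. The medians were 0.38 and 0.39.

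Cdh19, a cadherin of Schwann cell precursors, was at 7.34 to 12.7 and 4.16 to 11.6 CPM before injury and at 1.69, 4.75 and 2.07 in control and 6.47, 4.59 and 13.7 in Nf1-KO injured libraries (interaction 1.65, SE 0.68). Ngfr, the low-affinity neurotrophin receptor of repair Schwann cells, was at 1.87, 4.43 and 2.14 CPM in control and at 7.56, 3.67 and 8.26 in Nf1-KO injured libraries (interaction 1.70, SE 0.56). Both pairs of injured groups overlapped by 1 library. Sox10, the transcription factor that defines the lineage and melanocytes, was at 8.98, 13.7 and 7.35 CPM in control and at 19, 12.5 and 45.7 in Nf1-KO injured libraries, for an interaction of 1.07 (SE 0.53, adjusted p = 0.48). Without Nf1-KO injured library 3 the interactions were 1.04 for Cdh19, 1.48 for Ngfr and 0.34 for Sox10, and the list medians were 0.13 and 0.14. Pmp2 and Ngfr were named by the rule and the other nerve genes after their values were seen.

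RAS and ERK output genes, which ERK induces and which feed back on it, gave 1 of 18 members above 0 at an unadjusted p under 0.05 and none below, with 11 above 0 and a median of 0.35. As shares, 5.56% were above 0 at such a p, beside 8.55% of all genes, and 61.1% above 0 at any p, beside 60.4%. The member at such a p was Egr1, an early growth response transcription factor, at 84.5, 101 and 68.8 CPM in control uninjured and 43.4, 48.7 and 51.6 in Nf1-KO uninjured libraries. In injured libraries it was at 120, 101 and 153 CPM in control and at 205, 141 and 80.8 in Nf1-KO skin. The groups were separate before injury and overlapped after it, for an interaction of 1.01 (SE 0.38, adjusted p = 0.442). The feedback inhibitors Spry1 and Spry2 had interactions of -0.01 and -0.00, and Dusp6, the ERK phosphatase, had 0.59.

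Vessel genes were above 0 in most cases. Of 14 blood endothelial genes 13 were above 0, 3 (Kdr, Eng and Tek) at an unadjusted p under 0.05, with a median of 0.37. All 8 lymphatic genes were above 0, 3 (Flt4, Lyve1 and Reln) at such a p, with a median of 0.64. Over all genes 60.4% were above 0, and 8.55% at such a p. Kdr, the main receptor for VEGF on blood vessels, was at 10.9, 11.4 and 11.5 CPM in control uninjured libraries and at 6.63, 7.13 and 4.97 in Nf1-KO uninjured ones. It rose with injury in both genotypes, to 24, 25 and 27.9 CPM in control skin and 25.1, 21.5 and 40.3 in Nf1-KO skin (log2 changes 1.18 and 2.21, adjusted p = 0.00089 and 7.72e-06), and the interaction was 1.02 (SE 0.34, adjusted p = 0.442). The uninjured groups were separate and the injured ones overlapped. With the background covariate no vessel gene had an unadjusted p under 0.05. Without the 4 high-background libraries the blood endothelial median was -0.21 and the lymphatic one 0.03.

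Genes of the interstitial matrix were called higher with injury in both genotypes, 24 of 24 in control and 23 of 24 in Nf1-KO skin. Over all genes 22.8% and 19.1% were called higher. The list's median interaction was 0.21. Only Fbn1, the scaffold of elastic microfibrils, had an unadjusted p under 0.05 (1.31, SE 0.45). That is 4.17% of the list, beside 8.55% of all genes above 0 at such a p. The median changed sign, to between -0.47 and -0.18, without control uninjured library 3, without Nf1-KO uninjured library 2, without Nf1-KO injured library 3 and without the 4 high-background libraries. All 23 measured genes of the growing hair follicle were also called higher with injury in both genotypes, beside the same 22.8% and 19.1% of all genes. Their median interaction was 0.07 and none had an unadjusted p under 0.05, beside 10.8% of all genes. That median ran from -0.37 (without Nf1-KO uninjured library 2) to 1.17 (without Nf1-KO uninjured library 3) and was below 0 in 9 of 24 alternatives. The part of background in each named interaction was not tested beyond the settings given.

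Counts of several named genes are uncertain because another tested gene overlaps them: Brinp3, Sult5a1, Thbs1, Dusp1, Mt2, Sbsn, Krt10, Itgam, Cx3cr1, Usp18, Pmp2, Cldn19, Cdh19, Pou3f1, Eng, Fbn1, Atp2a1, Ckm, Nf1, Xist, Gm8210, Mbp, Per3, Dct and Cidea.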

How the data were processed

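Raw read counts per Ensembl gene, 1 library per column per the file headers, are the deposited values. They were whole numbers whose totals differed between libraries. The submitters' processing notes name mm10, HTSeq 0.5.3, STAR 2.5.2b, HOMER, DESeq2 and SAMtools, without the role of each; the strand setting is not given in the sources used here. Per the labels' protocols, RNA from an RNeasy Fibrous Tissue kit (10 ng) was amplified with Smart-Seq V4 and made into Nextera XT libraries, which do not mark the strand. Of 53379 gene IDs, 53274 matched GENCODE M21 (GRCm38, the assembly of mm10); the 105 others held at most 0.0454% of a library. In the tables, 1 column belonged to no listed sample and was not used.

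All 12 libraries were fitted in edgeR 4.0.16 (R 4.3.3) with 4 group means, TMM scaling, filterByExpr with a count minimum of 10, which 23635 of 49676 genes with a count passed, with a 2-sided quasi-likelihood F test, robust. Benjamini-Hochberg adjustment ran over all genes tested, with a call at an adjusted p under 0.05. Levels are TMM-scaled CPM computed from the deposited counts. Floors (3 counts over a group) and count intervals cover counting error only. The script was tested on simulated data.

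The gene lists, the comparison and the rule for named genes were chosen with earlier results of these data known. The rule took the 12 genes with the smallest p above 0 and the 12 below 0, at 2 CPM or more on average and with no Gm, Rik, pseudogene or predicted symbol, the member with the smallest p of each list, Nf1 and Prss56; the text gives a selection. Lists were described by counts and medians, with no set test. The 24 alternatives were median-of-ratios scaling, library totals, no filter, 2 CPM in 3 libraries, DESeq2 1.42.0, limma 3.58.1 voom, no robust estimation, a replicate block, each library left out, no X or Y genes, a covariate (receptor background, or the share of ribosomal RNA-like genes), and, added after the data were seen, leaving out the library of highest background in each group (8 libraries left). A linear CPM scale was tried for named genes. Within groups, no library repeated another, since pairs of libraries differed beyond counting noise. Some results for single genes are not reported here.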

Additional observations from a re-analysis of the deposited data

How the results depend on the processing

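Of the 24 alternatives, the count of called interactions moved to 236 with no filter, 37 in DESeq2, 3 with a covariate for ribosomal RNA-like genes (Zbtb16, Glul and Brinp3), and 1 without the library of highest background in each group (Rufy4). Leaving out single libraries gave 0 to 3: Fkbp5, Ifi202b and Zbtb16 without control uninjured 3, Plscr4 without Nf1-KO uninjured 1, Zbtb16 without control injured 1, Best2 without control injured 3, Brinp3 and Zbtb16 without Nf1-KO injured 2, and Rufy4 and Rpsa-ps10 without Nf1-KO injured 3. The injury count in control skin (13072) was 600 with the background covariate. In Nf1-KO skin (8851) it was 3043 with that covariate, 5804 with the ribosomal one, 5110 without the high-background libraries and 5647 to 10020 without single libraries, the lowest without Nf1-KO uninjured 2. The genotype count in uninjured skin (7) was 4 with median-of-ratios scaling, 2 with library totals, 219 with no filter, 2 at 2 CPM, 60 in DESeq2, 1 in voom, 2 without robust estimation, 4 without X and Y genes, 2 with the background covariate, 0 without the high-background libraries, and 0 to 12 without single libraries (0 without control uninjured 1, 12 without Nf1-KO injured 3). In injured skin (0) it was 410, 124 and 1 with no filter, DESeq2 and voom, 2 and 1 with the background and ribosomal covariates, 2 without the high-background libraries, and 0 to 89 without single libraries (57 without Nf1-KO injured 1, 89 without Nf1-KO injured 2). The log2 interaction of Mbp (0.26) turned to -0.0072 with the background covariate. That of Nf1 (0.20) turned to -0.0661 with it, to -0.29 without the high-background libraries, and ran from -0.0945 (without Nf1-KO injured 3) to 0.44 without single libraries. The difference of differences of Dct (-1.74 on the log2 scale) was 78.2 CPM on the linear scale. The cause was not tested in any of these. With the replicate number as a block, 0 interactions and 1 gene of the genotype comparison in uninjured skin were called, and 2156 genes had an unadjusted interaction p under 0.05. Of 18 pairs of same-numbered samples, 5 had correlated deviations over 0.1 (range -0.27 to 0.42), so the numbers were not taken to pair samples. The median SE of 0.36 at 2 CPM or more sets the precision of single genes.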

Other observations

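Sebaceous gland genes lay below 0 in 13 of 14 cases, with a median of -0.70, beside 39.6% of all genes below 0. Among them 1 (7.14%), Awat2, had an unadjusted p under 0.05, beside 2.2% of all genes below 0 at such a p. At 2 CPM or more 49.4% of genes were below 0, and 3.09% at such a p. In the class of 100 CPM or more 145 of 2067 genes were below 0 at such a p, a share near that of the list. Awat2, a wax synthase of sebum, was at 16.3, 6.98 and 19.9 CPM in control uninjured libraries and at 59.5, 31 and 45.2 in Nf1-KO uninjured ones, and at 21.9 to 47.7 and 23.5 to 62.4 after injury (interaction -1.35, SE 0.62, adjusted p = 0.465). Cidea, a lipid droplet protein of sebocytes, was at -1.11 (SE 0.56). The list's median was -0.53 with the background covariate and -0.74 without the 4 high-background libraries.

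Immediate early genes gave 5 of 16 above 0 at an unadjusted p under 0.05 (Atf3, Egr1, Nr4a1, Nr4a2 and Fos) and 1 below (Klf4), beside 8.55% and 2.2% of all genes. The median was -0.15, and it was 0.0092 with the background covariate and 0.04 without the 4 high-background libraries. Fos was at 45.8, 71.1 and 39.4 CPM in control uninjured libraries, 14.5, 21.8 and 16.2 in Nf1-KO uninjured, 26.7, 20.3 and 28.9 in control injured and 133, 21.2 and 12.7 in Nf1-KO injured ones. Its interaction was 2.71 (SE 1.06), and 0.99 without Nf1-KO injured library 1.

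Rufy4 was at 106, 57.3 and 85.4 CPM in control injured libraries and at 0.641, 0.564 and 50.3 in Nf1-KO injured ones, with 0.896 to 1.76 in the 6 uninjured ones. Its interaction was -2.27 (SE 2.20, adjusted p = 0.729), and -7.08 (adjusted p = 5.32e-07 in edgeR) without Nf1-KO injured library 3. It was named after its values were seen, as were Cidea, Nr4a1, Nr4a2, Fos and Klf4.

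Dct, a melanin synthesis enzyme, was at 6.96, 8.14 and 11.5 CPM in control uninjured libraries and at 20.7, 17.2 and 76.1 in Nf1-KO uninjured ones, without overlap, and at 283 to 500 and 285 to 679 after injury (interaction -1.74, SE 0.75, and -0.73 without Nf1-KO uninjured library 3). The wound-activated keratinocyte list had a median of -1.27, against 0.17 over all genes. Of its 16 members 13 were below 0, beside 39.6% of all genes and 49.4% of those at 2 CPM or more. At an unadjusted p under 0.05, 1 (6.25%) was below 0, beside 2.2% of all genes. Without Nf1-KO uninjured library 3 the list's median was 1.60, with 13 above 0. Per3, a clock gene, fell with injury in both genotypes, from 64.1 to 70.8 CPM to 16.7 to 21.9 in control skin and from 76.1 to 79.9 CPM to 25.8 to 48.8 in Nf1-KO skin (interaction 0.75, SE 0.29, adjusted p = 0.445).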
